A study of Mus musculus with 50 samples.

Results

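Exome variants of mouse chromosome 3 that were called in at least 2 of 44 tumours were described. Of 25624 variants in the deposited table, 12919 were called in at least 2 tumours, and 2125 of those lay on chromosome 3. They were chosen by their number of carrier tumours, which is therefore given below as a description. Of the chromosome 3 variants at the edge of that rule, 213 had 2 carriers, with a median read share of 45.45%, and the 738 with 1 carrier, which were left out, had a median read share of 28.57%. The read share is the percent of reads at a site that carry the variant base.

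The tumours were mesenteric lymph node tumours, labelled as malignant plasma cells, of mice with the genotype IL6Myc, each from its own animal. They are set apart here by the number in their title, with 22 tumours titled 1601 to 1628, 18 titled 1501 to 1592 and 4 titled 1199 to 1293. All carried the same genotype and came from the same site, and no treatment or age is given. The labels do not say what the title number stands for or which promoter drives either transgene. Nor do they give the strain of the mice with tumours or how these were related. Kidneys of wild-type mice, labelled with the genotype Balb/c, and 1 further tumour were not analysed here. An inherited variant and one acquired by a tumour therefore cannot be told apart. Exomes carry no expression, and the labelled cell type could not be checked against its markers.

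As background, chromosomes pass from parent to offspring in long unbroken stretches, and a crossover ends one stretch and starts another. In a cross between strains, variants of one parental stretch therefore travel together, and a site inherited from one parent only gives an even mixture of reads. Exome capture enriches coding exons with some flanking intron, so coding variants and their neighbours are seen best. Fat4, the gene set as the marker of these variants, encodes a very large atypical cadherin at the cell surface that binds the Dachsous cadherins. Its Drosophila relative Fat acts in planar cell polarity and upstream of the Hippo growth control pathway.

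Variants in the windows just upstream of gene starts could be shown with their sequence. Of 1637 RefSeq promoter windows of chromosome 3, from 250 bases before to 50 bases after a start, 21 (1.28%) held a shared variant, in 25 pairs of window and variant. In all 25 pairs the reference base of the table matched the RefSeq base. The 4 sequences below were picked because each lies in a segment described later and shows its carriers at a gene start. They are from RefSeq, build GRCm38.p6, on the plus strand, with the reference base of the variant site in capitals. Ndufb5, a subunit gene of respiratory complex I, is shown at chr3:32736914-32737034. Muc1, the gene of an epithelial mucin, is shown at chr3:89228986-89229055. Krtcap2, a subunit gene of the oligosaccharyltransferase complex, is shown at chr3:89246309-89246429, and the zinc finger gene Zfp697 at chr3:98382231-98382343.
Ndufb5: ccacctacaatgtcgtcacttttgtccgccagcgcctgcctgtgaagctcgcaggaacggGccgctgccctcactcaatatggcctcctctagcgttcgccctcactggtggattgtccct
Muc1: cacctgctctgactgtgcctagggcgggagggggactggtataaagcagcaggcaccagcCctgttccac
Krtcap2: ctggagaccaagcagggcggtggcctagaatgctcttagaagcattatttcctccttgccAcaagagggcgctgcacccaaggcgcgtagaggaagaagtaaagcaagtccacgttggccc
Zfp697: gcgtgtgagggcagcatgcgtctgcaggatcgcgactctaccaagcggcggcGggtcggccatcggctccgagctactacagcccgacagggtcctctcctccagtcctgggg

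The Ndufb5 site is a G-to-A change 89 bases upstream of the start, at the right edge of segment 1 below. It was called in 12 tumours, with a mean read share of 48.1% ± 13.4 (SD, n = 12). The Muc1 site is a C-to-G change 10 bases upstream of the start, called in 12 tumours at 53.5% ± 10.96 (SD, n = 12). The Krtcap2 site, an A-to-G change, was called in 12 tumours at 48.3% ± 9.31 (SD, n = 12), and both belong to segment 9. The Zfp697 site, a G-to-A change in segment 12, was called in 19 tumours at 46.1% ± 14.8 (SD, n = 19). The Ndufb5, Muc1 and Krtcap2 sites were called in 0 of 22 tumours titled 1601 to 1628, against 11, 10 and 10 of 18 titled 1501 to 1592. The Zfp697 site was called in 11 of 22 tumours titled 1601 to 1628, against 6 of 18.

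The 2125 variants were 1796 SNVs and 329 insertions or deletions. By the deposited annotation 1264 were intronic, 294 intergenic, 236 synonymous and 155 missense, with 2 stop gained, 2 frameshift, 4 essential splice site and 4 in-frame changes among the rest. Protein-altering variants made up 167 of them (7.86%), against 6.79% of the 10794 shared variants on other chromosomes. The ratio of missense to synonymous variants was 0.657 on chromosome 3 and 0.526 elsewhere, and transitions made up 72.6% of SNVs on chromosome 3 and 70.6% elsewhere. These shares were not tested, since neighbouring variants are linked and do not count as independent. The median read share was 48.48% on chromosome 3 and 48.33% elsewhere.

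Shared chromosome 3 calls were spread very unevenly over the tumours. They averaged 222.8 ± 186 in tumours titled 1601 to 1628 (SD, n = 22, range 13 to 454), 727 ± 528 in tumours titled 1501 to 1592 (SD, n = 18, range 11 to 1276) and 565 ± 637 in those titled 1199 to 1293 (SD, n = 4, range 16 to 1250). The highest number was in tumour 1502 and the lowest in tumour 1589. Chromosome 3 held 8.79% ± 7.17 of a tumour's shared calls in titles 1601 to 1628 (SD, n = 22), against 16.1% ± 11.6 in titles 1501 to 1592 (SD, n = 18). In tumour 1201 it held 40.9% of all shared calls. Read depth is unknown, a missing call can mean too few reads, and no interval can be set around a single read share. Shared calls over all chromosomes ran from 1596 to 5435 per tumour.

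**Figure D1:**
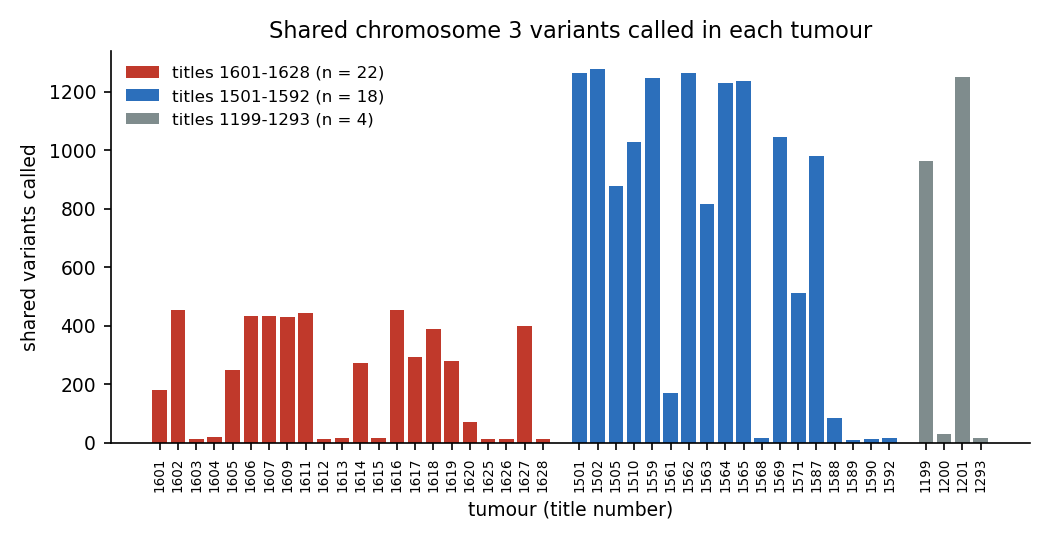
Number of shared chromosome 3 variants called in each tumour, 1 bar per tumour, titles on the x axis and colours for the 3 title ranges. Bars reach 454 in titles 1601 to 1628 and 1276 in titles 1501 to 1592, and 14 tumours have 30 or fewer.

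The calls fell into long stretches in which the same tumours carried nearly every variant. Each variant was compared with its 5 neighbours on each side, within 5 Mb. It was called linked where at least 3 of them, both sides counted together, shared with it at least 0.5 of the union of carriers. Runs of linked variants with 1 set of carriers and at least 10 variants were termed segments. There were 17 segments, numbered along the chromosome, holding 1623 of the 2125 variants (76.4%) and 49.5 Mb in all. Over 252 pairs of segment and carrier tumour, a mean of 91.3% ± 5.23 (SD over the pairs) of the segment's variants was called, with a range of 70 to 100%. In tumours that did not carry a segment, at most 0.152% of its variants was called on average. Segments had 2 to 24 carriers. Since these sets were drawn from the calls, the sharp contrast between carriers and others is part of their definition.

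Of the 44 tumours, 30 carried at least 1 segment and 14 carried none. Tumours with none were 8 of the 22 titled 1601 to 1628, 4 of the 18 titled 1501 to 1592, and tumours 1200 and 1293. They had 11 to 30 shared chromosome 3 calls each, against 72 to 1276 in tumours with a segment. The median number of segments was 4 in titles 1601 to 1628 (range 0 to 8) and 10 in titles 1501 to 1592 (range 0 to 14). The carrier sets formed 20 distinct patterns over the chromosome. Outside the empty one, the most frequent was segments 6, 8 and 10 to 15, in tumours 1602, 1606, 1607, 1609, 1611 and 1616. The next was every segment from 1 to 15 except 7, in tumours 1559, 1562, 1564 and 1565.

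**Figure D2:**
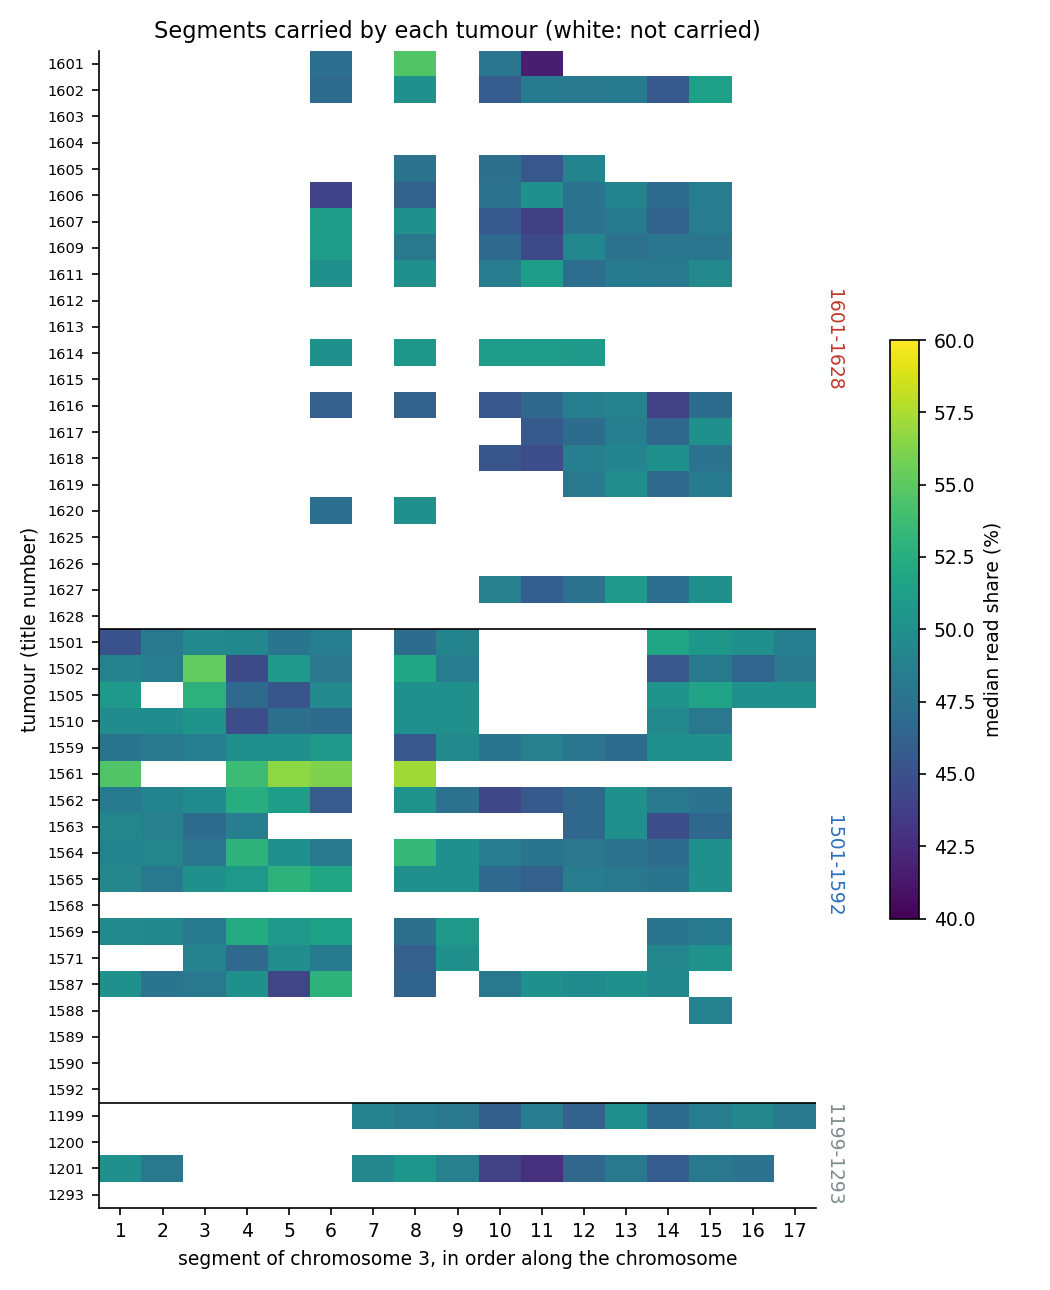
Tumours (rows, by title) against the 17 segments (columns, in chromosome order), coloured by the median read share of the segment's variants in percent and white where a segment is not carried. Segments 1 to 5, 7, 9, 16 and 17 are white in every tumour titled 1601 to 1628, and 14 rows are white throughout.

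The left end of the region holds 5 segments with nearly the same carriers. Segment 1 (chr3:30812487-32736974, 60 variants) was carried by 12 of 18 tumours titled 1501 to 1592 and by tumour 1201. It held 2 altered genes, Zmat3, which encodes an RNA-binding zinc finger protein, and Mfn1, a GTPase of mitochondrial fusion. The Zmat3 change p.Tyr214Asn had read shares from 39.13 to 61.76% with a median of 51.44% in its 12 carriers titled 1501 to 1592, and 52.08% in tumour 1201. Segment 2 (chr3:32861735-38979566) was the segment with the most variants, 422, of which 26 altered a protein in 11 genes. It began 0.125 Mb after segment 1, and in that interval tumours 1505 and 1561 ceased to be carriers.

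Segment 2 holds Fat4 at its right end and 10 other altered genes. Bbs12, a chaperonin-like gene of the Bardet-Biedl syndrome group, carried 3 missense variants, each in 11 tumours. Its change p.Val262Ile lay between 41.49 and 57.69% in the 10 carriers titled 1501 to 1592 and at 56.12% in tumour 1201. Ccdc144b carried an essential splice donor variant in 11 tumours, at 46.7% ± 5.63 (SD, n = 11), and 6 missense variants in 2 to 11 tumours. Usp13, a deubiquitinase gene, Exosc9, an RNA exosome subunit gene, Dnajc19, a mitochondrial gene, Qrfpr, a neuropeptide receptor gene, and Nudt6 each carried missense variants in 10 or 11 tumours. The AAA ATPase gene Spata5 carried 3 missense variants in 10 to 11 tumours. A frameshift, p.Arg89Alafs*28 in 1810062G17Rik, was called in 11 tumours at 46.0% ± 10.1 (SD, n = 11).

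Segments 3 to 5 were carried in no tumour outside titles 1501 to 1592. Segment 3 (chr3:55054468-57292735, 70 variants, 12 carriers) held 1 protein-altering variant. It was the frameshift p.Ser1403Leufs*3 in Nbea, the gene of neurobeachin, an anchoring protein of protein kinase A. Its read share was 34.55% in tumour 1587 and between 44.23 and 57.58% in the other 11 carriers. Segment 4 (chr3:59178920-61003954) had 10 variants, 13 carriers and no altered gene, and segment 5 (chr3:69431611-73934026) had 24 variants and 12 carriers. The only altered gene of segment 5 was Bche, the gene of butyrylcholinesterase, whose change p.Ser391Arg ran from 33.33 to 61.36% with a median of 46.21%.

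In the middle of the chromosome, tumours with higher titles joined the carriers. Segment 6 (chr3:74814744-76536503) began 0.881 Mb after segment 5, kept all 12 carriers of it and gained 9, all titled 1601 to 1620. Its 3 altered genes each had 1 missense variant in 21 tumours. They were Golim4, a Golgi membrane protein gene, Serpini2, a serine protease inhibitor gene, and Zbbx. Golim4 p.Arg179Ser ran from 41.67 to 55.88% in 9 carriers titled 1601 to 1628 and from 39.08 to 56.58% in 12 carriers titled 1501 to 1592, so both ranges overlapped. Segment 7 (chr3:82371229-83071928, 18 variants) was carried by tumours 1199 and 1201 only. It changed Map9, a microtubule-associated protein gene, and Plrg1, a spliceosome gene, whose change p.Ala102Pro had read shares of 47.75% in tumour 1199 and 47.42% in tumour 1201.

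Segments 8, 14 and 15 had the most carriers, 24 each, 10 titled 1601 to 1628, 12 titled 1501 to 1592, and tumours 1199 and 1201. Segment 8 (chr3:83836933-84595297) altered Tigd4, a gene derived from a transposable element, by 2 missense variants. Tigd4 p.Gln434Pro ran from 39.47 to 58.44% in titles 1601 to 1628 and from 41.18 to 63.46% in titles 1501 to 1592. Segment 14 (chr3:116673670-117839807) altered Palmd, the palmdelphin gene. Palmd p.Ser470Asn had a median of 42.46% (range 36 to 56.92%) in titles 1601 to 1628 and of 48.075% (range 43.94 to 60.42%) in titles 1501 to 1592, and the groups overlapped. Segment 15 (chr3:121171684-122158499) altered Abca4, a lipid transporter gene of photoreceptors, and F3, the gene of tissue factor, which starts blood clotting. Abca4 p.Thr224Met was called in all 24 carriers and p.Ser799Pro in 23, while F3 p.Thr26Ile was called in 12 of them, with read shares from 25 to 72.73%.

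Segment 9 (chr3:87435848-89344030) was the densest, with 231 variants at 121 per Mb and 16 altered genes, and no tumour titled 1601 to 1628 carried it. Its carriers were 10 tumours titled 1501 to 1592 and tumours 1199 and 1201. Muc1 carried 2 missense variants, p.Val308Asp in 12 tumours and p.Ser157Leu in 10. The first ran from 37.8 to 51.96% in titles 1501 to 1592 and was 50% in tumour 1199 and 52.94% in tumour 1201. Other altered genes were Rxfp4, a relaxin family peptide receptor gene with 3 missense variants, Insrr, an insulin receptor-related gene, Clk2, a kinase gene of splicing control, Sema4a, a semaphorin gene, Iqgap3, a scaffold gene, and Sh2d2a, an adaptor gene of T cells. Bglap2 and Bglap3, which encode osteocalcin-related proteins, carried 2 and 1. Bglap2 p.Ala86Thr averaged 43.5% ± 4.18 (SD, n = 7) and Bglap3 p.Thr26Ser 48.9% ± 3.57 (SD, n = 12), and whether reads of these close copies are mixed was not tested. The in-frame deletion p.Ala53del in 2810403A07Rik stood higher, at 64.3% ± 8.32 (SD, n = 10).

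Segments 10 to 13 were carried by tumours of all 3 title ranges, tumours 1199 and 1201 among them. They had 11, 12, 12 and 10 carriers among the 22 tumours titled 1601 to 1628, against 5, 5, 6 and 6 among the 18 titled 1501 to 1592. Segment 10 (chr3:92719095-94388994, 75 variants, 18 carriers) spans the epidermal differentiation genes. Lce1f, a late cornified envelope gene, Kprp, the filaggrin relative Flg2, the hornerin gene Hrnr, the trichohyalin gene Tchh and its neighbour Tchhl1 were altered in 18 to 20 tumours. So were Gm10696 and C2cd4d. No single protein-altering variant of Flg2 or Tchh had over 18 carriers. Their counts of 20 tumours also take in variants that are not part of the segment. Among these were Flg2 p.Gly1739Arg, at 3.25 and 4.86% in 2 tumours, and Tchh p.Phe886Ser, at 10 to 93.33% in 3.

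Segment 11 (chr3:94622911-95899111) followed 0.234 Mb after segment 10, gained tumour 1617 and altered Cgn, the gene of the tight junction protein cingulin. Cgn p.Asn238Tyr was called in all 19 carriers, from 34.69 to 63.24%. Segment 12 (chr3:98138208-99216497, 20 carriers) altered Hsd3b2 and Hsd3b6, genes of steroid-converting dehydrogenases, Hao2, a hydroxyacid oxidase gene, Wars2, a mitochondrial tryptophan tRNA synthetase gene, and the metalloprotease-like gene Adam30. Hsd3b2 p.Ile54Asn had medians of 46.55% in 12 carriers titled 1601 to 1628 and 46.43% in 6 titled 1501 to 1592. Segment 13 (chr3:101815175-111322274) was the longest at 9.51 Mb but held 76 variants, or 7.99 per Mb. Its altered genes were Dclre1b, a DNA repair nuclease gene, Ap4b1, an adaptor complex subunit gene, Bcl2l15, a relative of the Bcl2 genes, Syt6, a synaptotagmin gene, and Mab21l3.

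The right end had few carriers. Segment 16 (chr3:131248388-139021796, 142 variants) was carried by tumours 1199, 1201, 1501, 1502 and 1505, and segment 17 (chr3:141786831-146124726, 233 variants) by the same tumours except 1201. Segment 16 altered Tacr3, the neurokinin receptor gene, by 3 missense variants. Tacr3 p.Val87Ile had read shares of 40% in tumour 1501, 52.05% in 1502, 52.46% in 1505, 41.33% in 1199 and 50% in 1201. It also altered Cenpe, a kinetochore motor gene, Manba, a lysosomal mannosidase gene, Mttp, a lipoprotein assembly gene, Rap1gds1 and Adh5. Segment 17 had the most protein-altering variants, 33 in 12 genes. By the annotation, 6 genes of the Clca family held 19 of them. Among these genes, AI747448 is Clca4b in RefSeq and Gm6289 is Clca4c-ps, and whether Gm6289 makes a protein was not assessed. The guanylate-binding protein genes Gbp2b, Gbp3 and Gbp5, which interferon induces, held 8 of the 33. The variant annotated as Clca1 p.Leu869Phe, at position 144730716, had 53.33% in tumour 1501, 51.24% in 1502, 50.35% in 1505 and 50.79% in 1199. That position lies outside Clca1 in RefSeq (chr3:145004537-145032776), and which Clca gene the annotation means was not settled. Both families lie in clusters of related genes, and whether reads of one copy were placed on another was not tested. Median read shares of the 19 variants ran from 42.11 to 52.66%, and those of the 8 Gbp variants from 35.01 to 63.4%.

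Edges differed in how many tumours changed. Across the 0.125 Mb between segments 1 and 2 and the 0.234 Mb between segments 10 and 11, 2 and 1 tumours changed. At 7 of the 16 edges at most 2 tumours changed. The largest exchanges were on both sides of segment 7, where 21 tumours ended after segment 6 and 22 began at segment 8, the same 21 among them. Segment 7 consists of 18 variants of tumours 1199 and 1201 only. The 21 tumours are counted as ending and beginning because they lacked these variants. Whether crossovers lie there was not tested. Between segments 15 and 16, 19 tumours ended. Between segments 9 and 10 tumours 1501, 1502, 1505, 1510, 1569 and 1571 ended, and the same 6 began again at segment 14. Tumour 1199 was a carrier without a break from segment 7 to segment 17. Distances between segments ran up to 16.1 Mb, and 85 shared variants lay in these gaps or beyond the outer segments. In the longest gap, between segments 2 and 3, the Pcdh10 deletion at position 45392654 was called in the 10 carriers common to both segments, and not in tumours 1201, 1505 and 1571.

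Carriage was set against title number with Fisher's exact test on each of the 12919 shared variants, two-sided, with Benjamini-Hochberg adjustment over all of them. Of the 2125 chromosome 3 variants, 811 (38.2%) were called less often in titles 1601 to 1628 than in titles 1501 to 1592 at an adjusted p under 0.05, and 1 (0.0471%) more often. Over all shared variants, 18.2% were called less often and 0.186% more often. On the other chromosomes the shares were 14.2% and 0.213%. Variants of a segment are linked, so these counts are not counts of independent events. In fact 797 of the 812 calls lay in segments 1 to 5 and 9, and each of those segments had 0 carriers in 22 tumours titled 1601 to 1628, against 10 to 13 in 18 titled 1501 to 1592. The median adjusted p of their variants was 0.000122 in segments 1, 3, 4 and 5 and 0.000693 in segments 2 and 9. Fisher's exact test takes the tumours as independent, and how the mice were related is not given.

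Outside the segments, the in-frame deletion p.Gly963_Asp968del of Pcdh10, a protocadherin gene, had the same division. It was called in 0 of 22 tumours titled 1601 to 1628, against 10 of 18 titled 1501 to 1592 (Fisher's exact test, adjusted p = 0.000693). The smallest adjusted p, 0.000122, was shared by variants of many genes, among them Med12l, P2ry1 and P2ry12 in segment 4, and Actl6a in segment 1. None of segments 6 to 8 and 10 to 17 had a variant with a call. Their differences in carriers, titles 1601 to 1628 minus titles 1501 to 1592, ran from -25.8 percentage points in segment 6 to 26.8 in segment 11. The title number was not explained by the labels, and differences in breeding, capture or sequencing that may go with it were not tested.

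**Figure D3:**
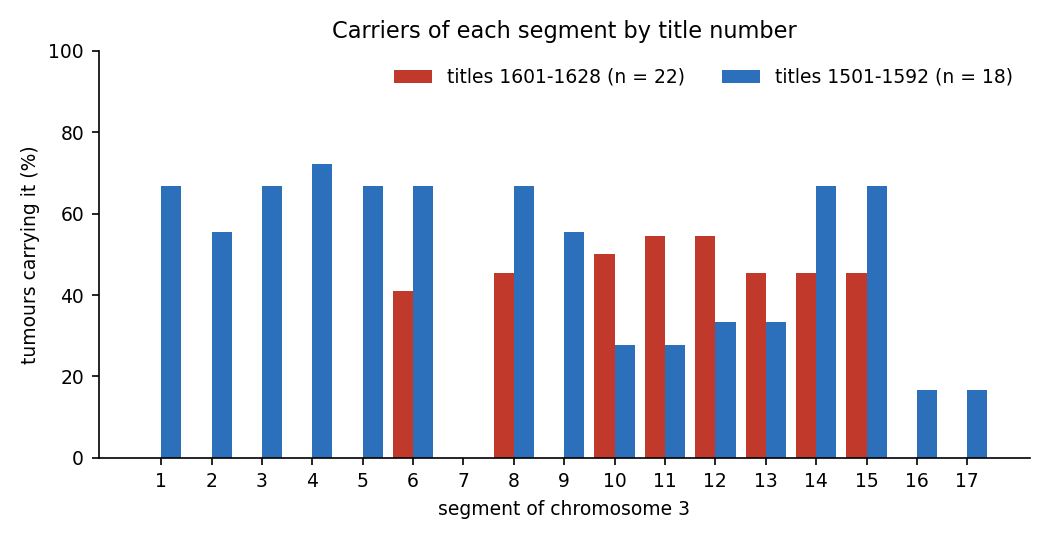
Percent of tumours that carry each segment, titles 1601 to 1628 (22 tumours, left bar) and titles 1501 to 1592 (18 tumours, right bar). Segments 1 to 5, 7, 9, 16 and 17 have no left bar, and segments 10 to 13 have the higher left bar.

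The variant called more often in higher titles was Cpa3 p.Arg209Gln at position 20225148, far to the left of segment 1. Cpa3 encodes carboxypeptidase A3, a protease of mast cells. It was called in 21 of 22 tumours titled 1601 to 1628, in 10 of 18 titled 1501 to 1592 and in tumour 1293 (Fisher's exact test, adjusted p = 0.0302). Leaving out any 1 of the 8 tumours titled 1501 to 1592 that lacked it gave an adjusted p between 0.0596 and 0.0616, and leaving out titles 1501 to 1510 gave 0.0521. The read share in carriers had a median of 47.37% (range 37.33 to 58.97%) in titles 1601 to 1628 and 42.98% (range 36.26 to 50.82%) in titles 1501 to 1592.

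Fat4 (chr3:38884667-39011992 in RefSeq) held 22 shared variants, 6 missense, 11 synonymous and 5 intronic. The missense variants fell into 2 kinds. The changes p.His172Arg, p.Phe340Leu, p.Glu586Lys and p.Val918Met were each called in the 11 carriers of segment 2, and p.Val1689Ile in 10 of them. Each was called in 0 of 22 tumours titled 1601 to 1628, against 9 or 10 of 18 titled 1501 to 1592 (Fisher's exact test, adjusted p = 0.000693, and 0.00155 for p.Val1689Ile). The sixth, p.Gly4683Arg at position 39009943, was called in 22 of 22 tumours titled 1601 to 1628, 18 of 18 titled 1501 to 1592 and tumour 1293. It was not called in tumours 1199, 1200 and 1201, and 42 tumours had at least 1 Fat4 missense variant.

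The read share of Fat4 p.Gly4683Arg ran from 30.77 to 63.16% with a median of 46.805% in titles 1601 to 1628, and from 38.98 to 68.75% with a median of 48.71% in titles 1501 to 1592. The groups overlapped, and the difference of -2.05 ± 2.36 points (SE) had an adjusted p of 0.908 by limma. The change p.Val918Met was at 37.78% in tumour 1201 and between 46.51 and 60% in 10 carriers titled 1501 to 1592. The 5 missense variants of segment 2 had mean read shares from 44.4% ± 6.76 for p.Glu586Lys to 51.8% ± 5.95 for p.Val918Met (SD, n = 11 each). None of the 6 differed from 50% at an adjusted p under 0.05, and the smallest was 0.0725 for p.Glu586Lys (limma).

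**Figure D4:**
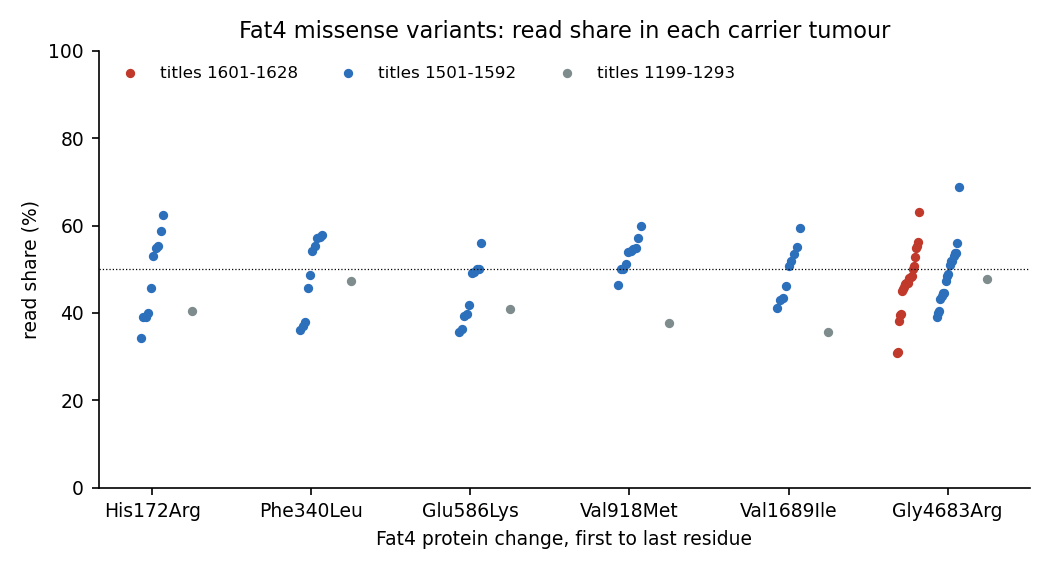
Read share in percent of the 6 Fat4 missense variants, 1 point per carrier tumour, coloured by title range and spread sideways only to separate points. The last variant, p.Gly4683Arg, is the only one with points of titles 1601 to 1628, which lie between 30.77 and 63.16%.

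The 167 protein-altering variants lay in 91 annotated genes, and 142 of them lay in segments. RefSeq lists 983 protein-coding genes on chromosome 3. The 91 were matched to RefSeq by symbol or synonym without regard to gene type, so they need not all be among the 983. Of the 91 genes, 51 carried 1 such variant and 40 carried several. Genes altered in over 22 tumours included Fat4 with 42, Cpa3 with 32, and Abca4, Tigd4 and Palmd with 24 each. Of the 91 genes, 1 (1.10%) was altered in titles 1601 to 1628 and in no tumour titled 1501 to 1592, and for 51 (56.0%) the reverse held. On the other chromosomes these shares were 4.43% and 38.3% of 519 altered genes. The 1 gene was Selenbp1, whose only protein-altering variant was called in 2 tumours at read shares of 2.61 and 4.67%. Rps3a1, Gon4l and Rptn also entered the 91 only by calls at low read share, from 3.7 to 5.31%. Apart from Fat4, genes of segments 1 to 5 and 9, which had no carrier titled 1601 to 1628, are among the 51. Fat4 was altered in 22 tumours titled 1601 to 1628 by p.Gly4683Arg, which lies outside the segments. Genes of segments 16 and 17, each carried by 3 tumours titled 1501 to 1592, are also among the 51, apart from Adh5. By Fisher's exact test 53 of the 167 (31.7%) were called less often and 1 (0.599%) more often in titles 1601 to 1628, against 38.2% and 0.0471% of all 2125 variants and 18.2% and 0.186% over all shared variants. Protein-coding genes that overlap a segment numbered 493.

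Of 53 chromosome 3 genes on 3 lists of genes chosen here, 5 (9.43%) held a shared protein-altering variant, Fat4 among them. The 91 altered genes of the chromosome amount to 9.26% of the number of its protein-coding genes. Of 4 Fat and Hippo genes on chromosome 3, Fat4 alone held a shared variant. Of 19 myeloma genes or genes of human chromosome arm 1q on mouse chromosome 3, 4 held a shared variant, among them Notch2, Muc1 and Ash1l, and Muc1 alone held a protein-altering one. Notch2, a receptor gene, held 15 shared variants in up to 20 tumours, none of them protein-altering. Nras and the survival gene Mcl1 lie within segments 13 and 11 and held no shared variant. Of 30 B cell, plasma cell and immune genes, 12 held a shared variant and 3 a protein-altering one. Those 3 were Gbp3 and Gbp5 of segment 17 and Fcrl5, a receptor-like gene of B lineage cells with p.Val199Ile and p.Val199Gly in 4 tumours. Il2 and Il21, both cytokine genes, held 4 shared variants each and Pik3ca, a lipid kinase gene, held 7, with none protein-altering.

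Read shares of the segments sat close to 50%. The median over a tumour's segment calls averaged 48.7% ± 1.51 (SD, n = 30 tumours). Over the 252 pairs of segment and carrier the medians ran from 41.67 to 57.14%. Of 17770 calls in segments, 93.0% lay between 30 and 70%, and 1.31% were at or above 90%. The lowest median was that of tumour 1601 in segment 11. Means over carriers were lowest in segments 10 and 11, at 46.95% ± 1.75 (SD, n = 18) and 46.8% ± 2.72 (SD, n = 19), and highest in segment 5, at 49.7% ± 3.32 (SD, n = 12).

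Tumour 1561 stood highest among the carriers. Its medians were 54.55% in segment 1, 53.73% in segment 4, 56.6% in segment 5, 56.16% in segment 6 and 57.14% in segment 8, the highest of any carrier in all 5 of its segments. Over those variants together its median was 55.4%, against 49.4% in the other carriers. Its median over shared variants of other chromosomes was 50%. The next largest deviations were 2.325 points in tumour 1614 and -2.175 in tumour 1620. These deviations were picked out after the values were seen and have no test.

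**Figure D5:**
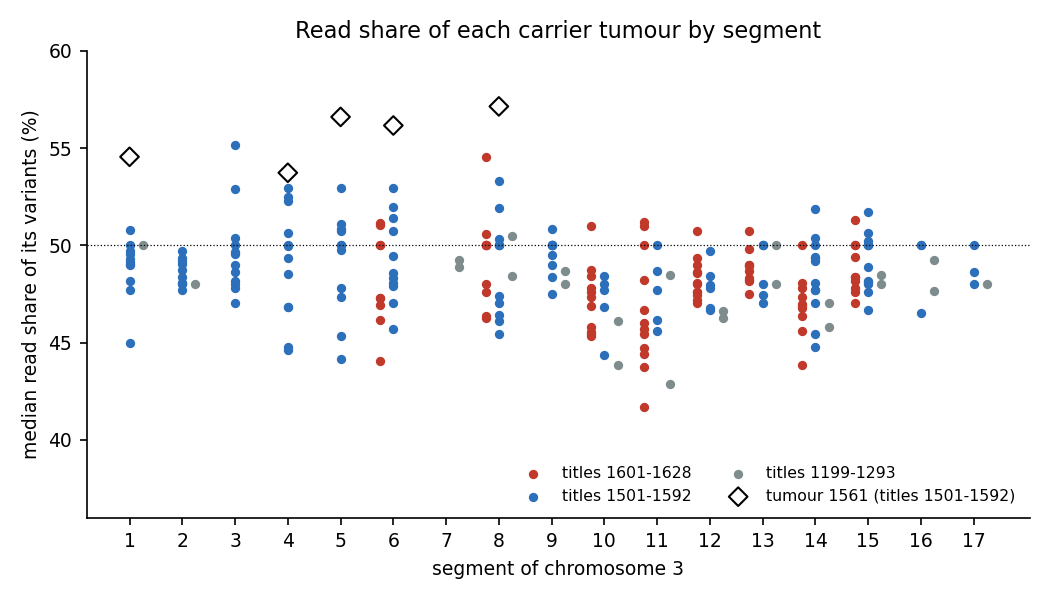
Median read share in percent of a segment's variants in each carrier tumour, 1 point per tumour, by segment, with titles 1601 to 1628 left of titles 1501 to 1592 and titles 1199 to 1293 at the right. The dotted line is 50%, and the diamonds of tumour 1561 lie between 53.73 and 57.14%.

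Read share by title number was tested with limma on 3217 shared variants that had at least 5 carriers in both groups, 377 of them on chromosome 3. No chromosome 3 variant passed an adjusted p of 0.05, against 0.0311% higher and 0.311% lower in titles 1601 to 1628 over all tested variants. At an unadjusted p under 0.05 there were 17, with 11 higher and 6 lower. The median difference, titles 1601 to 1628 minus titles 1501 to 1592, was -0.376 points with a median SE of 3.86. The smallest adjusted p, 0.108, belonged to an intronic variant of Wars2 at 17.6 points.

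Read share was also set against 50% with limma in 6727 shared variants with at least 6 carriers. Of 1340 on chromosome 3, 50 (3.73%) were higher and 150 (11.2%) lower at an adjusted p under 0.05. Over all tested variants the shares were 5.86% and 13.9%. The median departure on chromosome 3 was -1.38 points. Many calls sat in segment 10, within whose bounds 46 of 104 tested variants were lower and 13 higher.

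The departures included variants at nearly all reads and variants at few. Among those passing the test, 28 had a mean read share of at least 90% and 22 had one under 20%. A non-coding exon variant of 1700061I17Rik in segment 14 was at 100% in all 24 carriers (limma, adjusted p = 7.37e-37). An intronic variant of Tuft1, a tuftelin gene, was at 100% in 18 tumours, and 9 variants of 5830417I10Rik had means from 99.7 to 100%. An intronic variant of Flg2 was at 99.7% ± 1.07 (SD, n = 21). Of the 28 sites, 18 belonged to segments. Those of 1700061I17Rik and 5830417I10Rik lie among segment variants near 50% in the same tumours, and the Tuft1 site lies within the bounds of segment 11. The Flg2 site lies within the bounds of segment 10 but outside its variants. Segment 10 had 18 carriers, so some of the 21 tumours with the Flg2 variant did not carry it.

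Of the 22 variants with a mean under 20%, 15 lay in no gene and 7 in genes. The missense variants among the 7 were Hrnr p.Gly2193Glu, at 14.7% ± 5.67 (SD, n = 11), and Tdpoz2 p.Ile36Val, at 19.5% ± 1.43 (SD, n = 9). Above 20%, and so not among the 22, Flg2 p.Asp1540Glu averaged 22.9% ± 3.09 (SD, n = 13). The stop gained p.Gly354Ter of Gm10696, also above 20%, averaged 29.3% ± 4.77 (SD, n = 15). Each passed the limma test with an adjusted p of at most 3.08e-09, as did an intronic variant of Hsd3b4 at 16.2% ± 5.02 (SD, n = 18). A synonymous variant of Tdpoz4 stood at 65.9% ± 2.46 (SD, n = 15). Whether reads of near-identical copies are mixed at these sites was not tested.

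The 502 variants outside segments mostly lay within the bounds of a segment and had fewer carriers. They had a median of 3 carriers, against 11 in segments, and 417 of them lay within the bounds of a segment. In 361 of the 417, all carriers were also carriers of that segment. Whether these belong to the same stretches, with calls missed in other carriers, was not tested. Median read shares under 20% were found in 57 of the 502 (11.4%), against 9 of the 1623 in segments (0.555%). The other 85 lay within no segment.

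Variants at neighbouring bases came as pairs. There were 33 pairs of SNVs at adjacent positions, and in all 33 both had the same carriers and, within 1 percentage point, the same read share in every carrier. In 5 pairs both were annotated as protein-altering, at Map9 residue Gln179, Fcrl5 Val199, Hsd3b2 Gly12, Gbp5 Ser488 and Gm6289 Met113. The table annotates each base alone, for example p.Gln179Ter and p.Gln179Arg in Map9, each at 39.39% in tumour 1199 and 49.23% in tumour 1201. The residue that both changes give together was not assessed, so the stop in Map9 rests on the annotation of 1 base alone.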

How the data were processed

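The samples were whole exomes, captured from genomic DNA with an Agilent SureSelect mouse kit, as the labels' protocols state. GATK and the mm10 build are named per the submitters' processing notes, with no version or setting. Nothing at hand names the aligner, filters or annotation tool. The deposited cells hold a percent or a dot, and a deposited column holds the count of carriers. The headers do not define the percent, which was read from the values as the read share. Of 25823 deposited rows, 199 with several alternate alleles were left out. No depth is given.

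Carrier sets were traced along the chromosome with a chain of 2 states per tumour (70% called in carriers, 2% in others, switch probability 0.0001). Fisher's exact tests used SciPy 1.17.1, and read shares were tested with limma 3.58.1 in R 4.3.3, with missing calls left out. Both ran on all shared variants, with Benjamini-Hochberg adjustment, and were tested on simulated data. All these tests treat linked variants as independent. They also treat the tumours as independent, though the labels do not give how the mice were related. Named genes are Fat4, the 25 altered in the most tumours, those altered in most carriers of each segment, altered genes of 3 lists, and up to 5 per direction in each test; others were picked after their values were seen. The members, segments and lists were chosen with earlier results of these data known. Some genes that this rule names are not reported here.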

Additional observations from a re-analysis of the deposited data

Results flagged for a closer look

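Among the 4 tumours titled 1199 to 1293, the median read share of shared chromosome 3 calls was 35.9% in tumour 1200, at 35.895 before rounding, against 47.53 to 48% in the other 3. The distance to its nearest neighbour was 0.961 of the whole range, above Dixon's 95% critical value for 4 samples. Over all 14 tumours with no segment, which had 11 to 30 such calls, the median ran from 33.12 to 80.77%. Tumour 1200 carried no segment and had 30 such calls, and its median over other chromosomes was 48.0%. Chance marks about 1 group in 20, and 4 measures were looked at.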

How the results depend on the processing

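Of 61 alternatives for counts and means, 60 gave a count within 1.5 times, or a mean within 1 SD, of the value reported. The exception was a rank-sum test of title number in place of Fisher's exact test, which called 1289 chromosome 3 variants (1288 less often at higher titles), against 812. The cause was not tested. That test alone also passed Golim4, Tigd4, Fcrl5, Tacr3, Gbp3, Gbp5 and Clca1 variants named above. Leaving out each tumour in turn gave 785 to 814 calls, titles 1501 to 1510 left out gave 772, and a minimum read share of 20% gave 807. The call of Cpa3 p.Arg209Gln was lost in 9 of its 43 alternatives. Read share by title number gave 0 calls on the logit scale, with 3 carriers per group and with a 20% minimum. Against 50%, 163 of 1154 tested variants passed with SNVs only, 140 of 1090 with at least 10 carriers and 163 of 1308 with a 20% minimum. In the main setting 200 of 1340 passed. Segments numbered 16 to 18, against 17, and altered genes 84 to 87, against 91. No paired analysis was possible because replicate numbers were given in accession order and pair no samples. Unknown depth limits every missing call, and few carriers limit tests of segments 7, 16 and 17.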

Other observations

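Besides Fat4 p.Gly4683Arg and Cpa3 p.Arg209Gln, 5 shared chromosome 3 variants were called in over 24 tumours, all outside coding sequence. An intergenic variant at position 64415376 and an intronic one of Atp8b2, a phospholipid flippase gene, were each called in 43 tumours and missing in tumour 1200. An intronic variant of the nuclear pore gene Nup210l was called in 40 and missing in tumours 1200, 1201, 1501 and 1607. An intronic variant of Flg2 was called in 42 at a median read share of 100%, and one of Abcd3, a peroxisomal transporter gene, in 25.

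In tumour 1201 the median read share was 47.8% over shared chromosome 3 calls and 38.9% over those of other chromosomes, the lowest of the 44 tumours. In tumour 1614 it was 50.5% on chromosome 3 and 56.25% elsewhere, the highest of the 44.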
